A study of Mus musculus with 6 samples.

Results

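The 8 genes studied here belong to the colony-stimulating factor system and were followed by cell class in single-nucleus RNA-seq of mouse lung tumors. They are the ligands Csf1, Il34, Csf2 and Csf3 and the receptor genes Csf1r, Csf2ra, Csf2rb and Csf3r. They were chosen by symbol and are 8 of the 22623 genes in each of the 6 count matrices. Tumors were grown from TC1 cells, a mouse lung tumor line that carries papillomavirus oncogenes and activated Ras, injected under the skin of the right flank of C57BL/6 mice. All host mice were 8 weeks old and carried MCT2 loxP/loxP alleles with a tamoxifen-inducible Cre that acts in the whole body, so both groups shared the floxed allele and the Cre. The KO mice received tamoxifen on 5 days and the CO mice received vehicle, tumors grew for 24 days, and each group gave 3 libraries. No tamoxifen-treated mice without Cre were among the libraries, so the deletion and the drug cannot be told apart. The Cre and the floxed allele belong to the host mice, and the tumor cells are an injected line.

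CSF1 and IL-34 are separate ligands of one receptor tyrosine kinase, the product of Csf1r, which macrophages need for survival and proliferation. GM-CSF (Csf2) binds a receptor made of a specific alpha chain (Csf2ra) and a beta chain (Csf2rb) shared with the receptors for IL-3 and IL-5, and G-CSF (Csf3) acts through Csf3r on the neutrophil lineage. In tumors, ligands of this family made by tumor cells, stroma or lymphocytes are known to act on myeloid cells that carry the receptors.

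The files held 18865 barcodes, of which 17493 nuclei were kept (7652 CO and 9841 KO), with 1761 to 4581 nuclei and a median of 1094 to 4865 unique molecular identifiers (UMIs, the counted RNA molecules) per library. Of the distinct barcodes, 61 occurred in more than 1 library. The 23 clusters gave 9083 mesenchymal-like, 6045 macrophage-like, 677 T/NK-like, 188 endothelial-like and 113 fibroblast-like nuclei, each named from its own markers. A further 1160 nuclei stayed unnamed. No cluster was epithelial-like, and the markers used do not separate implanted cells from host stroma within the mesenchymal-like class. Of 8 epithelial markers, Krt5, Krt14 and Sftpc were at 0 in all nuclei and Epcam had 16 UMIs, although the libraries are labelled as lung. Slc16a7, the gene of MCT2, was not lower in the libraries labelled KO (log2 fold change 0.46, SE 0.54, edgeR quasi-likelihood adjusted p = 0.721, over all nuclei). Within macrophage-like nuclei its value was 0.26 (SE 0.27, edgeR adjusted p = 0.804). Whether the deletion took place was not tested. KO replicate 1 stood apart: without it, the number of genes that passed the test of KO against CO rose from 0 to 2000 in macrophage-like nuclei.

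Transcripts of both CSF1R ligands lay mainly in mesenchymal-like nuclei. Of 7841 Csf1 UMIs, 82.3% (95% exact binomial interval 81.5 to 83.2%, which covers counting error only) were in that class and 3.90% were in macrophage-like nuclei. Of 3302 Il34 UMIs, 87.5% (86.3 to 88.6%) were in mesenchymal-like nuclei and 0.787% were in macrophage-like nuclei. Unnamed nuclei held 11.0% of the Csf1 and 10.4% of the Il34 UMIs, with 9.41% of all UMIs. Mesenchymal-like nuclei held 77.6% of all UMIs and macrophage-like nuclei 9.51%, so the Csf1 share was close to the share of all RNA, and levels are given below as CPM, the UMIs of a gene scaled to 1000000 UMIs of the class itself.

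Csf1 (ENSMUSG00000014599, chromosome 3, 107741048 to 107760469, minus strand, GRCm38) reached 99.4, 128.3 and 118.7 CPM in the mesenchymal-like nuclei of CO replicates 1, 2 and 3. The KO replicates 1, 2 and 3 held 143.9, 60.3 and 84.3 CPM. The KO libraries thus lay on both sides of the CO libraries, and the mean over the 6 libraries was 105.8 ± 30.7 CPM (SD, n = 6). Csf1 was not restricted to that class. Fibroblast-like nuclei, counted in the 3 libraries with at least 20 of them, held 113.7 ± 59.6 CPM, T/NK-like nuclei 75.5 ± 32.1 CPM (n = 6), endothelial-like nuclei 58.3 ± 30.3 CPM (n = 5) and macrophage-like nuclei 37.2 ± 14.02 CPM (n = 6). Each neighboring pair of classes in this order overlapped in range, although fibroblast-like nuclei were above mesenchymal-like nuclei in 3 of 3 libraries, so most of the order was not resolved beyond the spread between libraries. Mesenchymal-like nuclei nevertheless exceeded macrophage-like nuclei in 6 of 6 libraries, a direction shared by 35% of 11632 genes with at least 200 UMIs over both classes together.

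Il34 (ENSMUSG00000031750, chromosome 8, 110741829 to 110805924, minus strand) was much more narrowly placed. Its mesenchymal-like level was 53.4, 42.5 and 28.1 CPM in CO replicates 1 to 3 and 41.8, 52.7 and 53.3 CPM in KO replicates 1 to 3, with overlapping groups. Fibroblast-like nuclei, at 16.05 ± 4.79 CPM (n = 3), did not overlap in range with mesenchymal-like nuclei, whose mean was 2.82 times as high. Endothelial-like, T/NK-like and macrophage-like nuclei followed at 11.8 ± 14.7, 9.63 ± 11.6 and 3.23 ± 1.32 CPM, and their ranges overlapped. Only 26 Il34 UMIs were found in all 6045 macrophage-like nuclei.

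**Figure D1:**
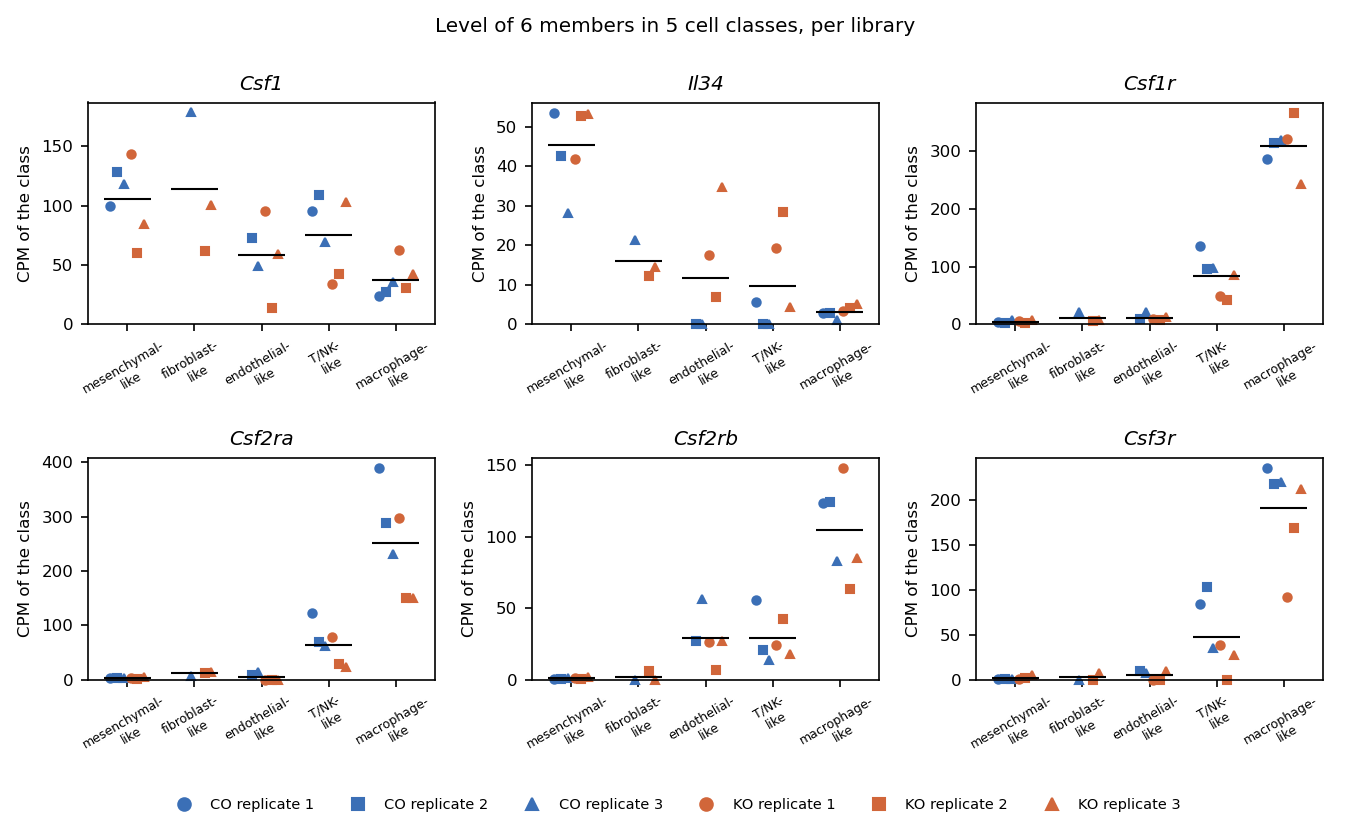
Level of 6 genes in 5 cell classes, in CPM of the class, with 1 point per library that had at least 20 nuclei of the class (blue CO, orange KO; the symbol gives the replicate) and a line at the mean. The 4 receptor genes sat highest in macrophage-like nuclei, Il34 in mesenchymal-like nuclei, and Csf1 was spread over all 5 classes.

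Nuclei of one class can hold RNA released from another, so each ligand was set beside 13 mesenchymal marker genes measured in the same nuclei. In macrophage-like nuclei the summed markers stood at 4.84 to 14.7% of their mesenchymal-like level in the 6 libraries. Mecom and Slit2 gave 3131 and 3278 of the 8556 marker UMIs in macrophage-like nuclei. They gave 330487 and 300645 of 747475 in mesenchymal-like nuclei, so the sum mostly follows Mecom and Slit2. Csf1 in macrophage-like nuclei stood at 21.5 to 51.0% of its mesenchymal-like level and was above the summed markers in 6 of 6 libraries. Over the pooled nuclei its share, 38.7%, was above that of 12 of 13 markers. Il34 stood at 4.41 to 9.66%, and its pooled share, 7.34%, was below that of all 13 markers. When nuclei were assigned to classes one by one in place of whole clusters, the mean Il34 share rose from 6.93 to 19.1% and that of Csf1 moved from 36.8 to 48.4%. In pooled T/NK-like nuclei Csf1 reached 74.9% of its mesenchymal-like level against a median of 25.4% for the markers, and it was above 10 of 13 of them. This rested on 76 UMIs, and single libraries ran from 23.6 to 122%, against 13.0 to 26.2% for the summed markers. The Csf1 percentage was thus above that of most mesenchymal markers in macrophage-like nuclei and, on few counts, in T/NK-like nuclei. Pooled over macrophage-like nuclei, Il34 was not above them under the assignment by cluster. The markers were picked as genes of the mesenchymal-like class, some from the study's own marker genes for these tumors. Genes not picked this way can stand above them, and the share of all genes that did was not counted.

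**Figure D2:**
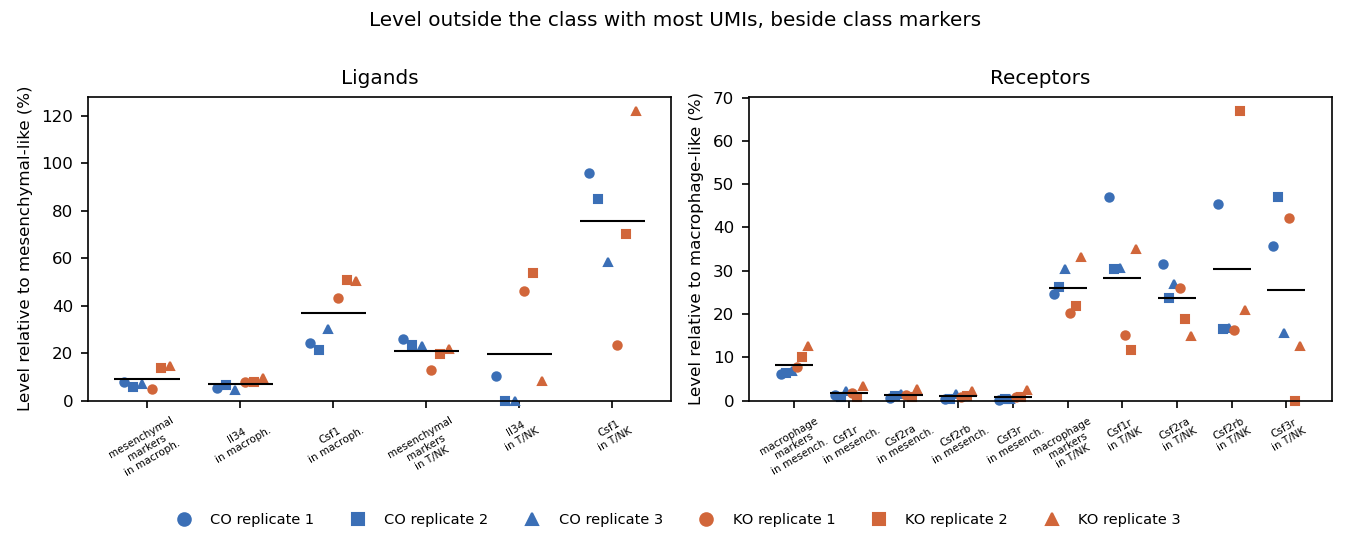
Level of each gene outside the class that held most of its UMIs, as a percentage of the level in that class, with 1 point per library and a line at the mean (left, ligands relative to mesenchymal-like nuclei; right, receptors relative to macrophage-like nuclei). Csf1 in macrophage-like nuclei, at 21.5 to 51.0%, was above the summed mesenchymal markers in each library. The receptors in T/NK-like nuclei scattered around the summed macrophage markers.

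The 2 CSF1R ligands differed in their placement among the 7 mesenchymal-like clusters. Il34 was highest in the cluster led by Dkk2 and Tafa1, at 65.6 ± 21.8 CPM (n = 6), and in the cycling cluster led by Lingo2, at 55.6 ± 14.6 CPM. It was lowest in the clusters led by Atf3 and by Gpm6b, at 21.4 ± 13.5 (n = 5) and 22.0 ± 3.29 CPM. The Dkk2 cluster and the Gpm6b cluster differed in the same direction in 6 of 6 libraries. Csf1 had the reverse position in the Dkk2 cluster, where it was lowest among the 7 clusters at 73.1 ± 26.4 CPM, below the clusters led by Lingo2, Plcd3, Gpm6b and Rsad2 in 6 of 6 libraries. Its highest mean, 133.8 ± 42.6 CPM, was in the cluster led by the interferon-induced genes Rsad2 and Ifit1. That cluster was above those led by Lingo2, Plcd3, Gpm6b, Dkk2 and Msln in 6 of 6 libraries. The Rsad2 and Atf3 clusters were not resolved from each other. Over the 5 libraries with both, their Csf1 means were 121.9 and 122.9 CPM, and the Rsad2 cluster was higher in 2. Il34 was itself among the leading genes of the Dkk2 cluster, so these levels describe the clusters and were not tested.

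Csf2 and Csf3 were close to the limit of detection. Only 9 Csf2 UMIs (chromosome 11, 54247271 to 54249667) were counted in all nuclei, and 6 of them were in T/NK-like nuclei, 3 each in CO replicates 1 and 2. The other 4 libraries had none in that class. The pooled T/NK-like level was 6.19 CPM (95% Poisson interval 2.27 to 13.5), against 0.132 CPM (0.00335 to 0.737) in macrophage-like and 0.0162 CPM (0.00041 to 0.0903) in mesenchymal-like nuclei, with 1 UMI each. Activated T cells are a known source of GM-CSF. Of 7 Csf3 UMIs, 5 were in mesenchymal-like nuclei, 2 each in CO replicate 1 and KO replicate 1 and 1 in CO replicate 2. No macrophage-like nucleus held a Csf3 UMI, and 3 counts would have corresponded to 0.397 CPM in that class. Neither gene could be compared between groups at this depth.

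The 4 receptor genes were found mostly in macrophage-like nuclei. That class held 77.9% of 2877 Csf1r UMIs (76.3 to 79.4%), 80.1% of 2399 Csf2ra UMIs (78.4 to 81.7%), 76.2% of 1108 Csf2rb UMIs (73.6 to 78.7%) and 82.4% of 1702 Csf3r UMIs (80.5 to 84.2%). In each of the 6 libraries all 4 were higher in macrophage-like than in mesenchymal-like nuclei, as were 27.6% of 11632 genes. All 4 also differed at least 10-fold between the class means, which held for 4.53% of those genes.

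**Figure D3:**
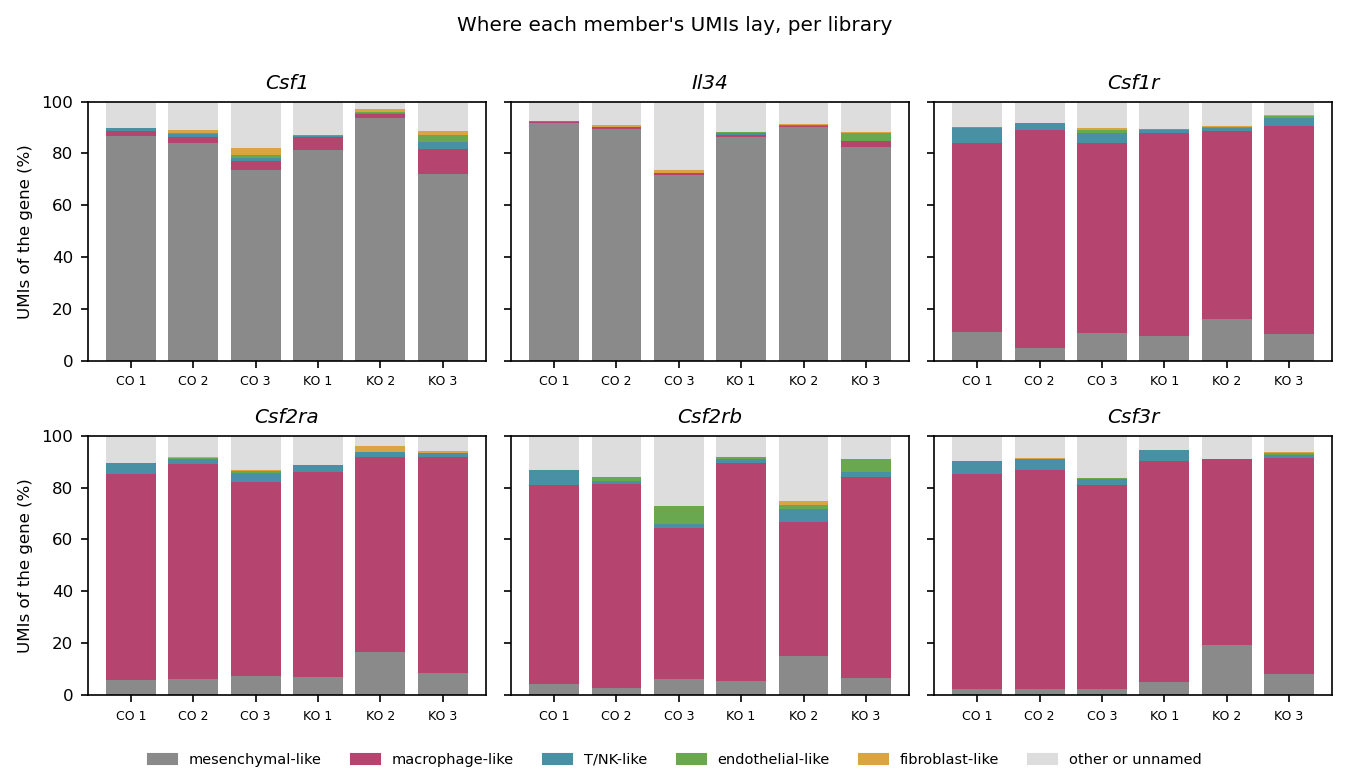
Share of each gene's UMIs by cell class, as stacked percentages of all UMIs of the gene in a library, for 6 libraries (CO and KO replicates 1 to 3). Mesenchymal-like nuclei held 71.9 to 93.6% of Csf1 UMIs, and macrophage-like nuclei held 72.7 to 84.1% of Csf1r UMIs.

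Csf1r (ENSMUSG00000024621, chromosome 18, 61100598 to 61132149, plus strand) encodes the receptor of CSF1 and IL-34. Its macrophage-like level was 286.0, 313.4 and 318.0 CPM in CO replicates 1 to 3 and 319.8, 365.0 and 241.8 CPM in KO replicates 1 to 3. This was the most even of the 4 receptors across libraries, with the highest and lowest values both in the KO group. Mesenchymal-like nuclei held 5.03 ± 2.39 CPM (n = 6), a level 61.1-fold lower. With each nucleus thinned to 1000 UMIs, a Csf1r UMI was found in 24.4 ± 2.39% of macrophage-like nuclei in CO and 26.6 ± 5.60% in KO libraries (n = 3 each), against 0.564 ± 0.494% and 0.798 ± 0.498% of mesenchymal-like nuclei. The median depth before thinning was 925 to 1100 UMIs in macrophage-like and 1838 to 7566 in mesenchymal-like nuclei, and shallower nuclei were left out.

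Csf2ra (ENSMUSG00000059326, chromosome 19, 61223957 to 61228429, minus strand), the GM-CSF-specific chain, stood at 389.3, 287.9 and 231.4 CPM in the macrophage-like nuclei of CO replicates 1 to 3. The KO replicates had 296.7, 149.7 and 149.7 CPM. KO replicates 2 and 3 were the lowest of the 6 libraries, and KO replicate 1 lay within the CO range. Csf2rb, the shared chain, stood at 123.6, 124.5 and 82.9 CPM in CO replicates 1 to 3, and at 148.1, 63.6 and 85.4 CPM in KO replicates 1 to 3, with overlapping groups. Its counts are uncertain because reads can be shared with the near-identical gene Csf2rb2, which had 221 UMIs and stood at 20.2 ± 8.57 CPM in macrophage-like nuclei. Csf3r, the G-CSF receptor, stood at 235.2, 217.9 and 220.2 CPM in CO replicates 1 to 3, and at 91.6, 168.1 and 212.5 CPM in KO replicates 1 to 3. All KO libraries were below all CO libraries for Csf3r, KO replicate 3 by a narrow margin.

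No cluster carried the neutrophil markers, although Csf3r is a receptor best known from neutrophils. In macrophage-like nuclei 9 of 10 neutrophil markers had a UMI, Ly6g was at 0, and 369 of their 437 UMIs were Il1r2, a decoy receptor that macrophages can also express. The summed neutrophil markers spanned 35.9 to 60.1 CPM over the CO libraries and 23.7 to 114.1 CPM over the KO libraries. KO replicate 1, with the highest sum, had the lowest Csf3r level, and the part of these cells in the Csf3r values was not tested.

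The receptors were not evenly distributed over the 5 macrophage-like clusters. Csf1r had its highest mean, 411.2 ± 123.7 CPM (n = 6), in the cluster led by Ccr2, a gene of monocyte-derived cells. That cluster was above those led by Lair1 and Gbp5 in 6 of 6 libraries, but above the Mrc1 cluster in 4 of 6. The lowest mean, 201.4 ± 86.6 CPM, was in the cluster led by Fcrl5 and Klra17. The Fcrl5 cluster was above the Gbp5 cluster in 3 of 6 libraries, so neither the top nor the bottom rank was resolved. Csf2rb followed the same pattern, with 169.8 ± 60.2 CPM in the Ccr2 cluster and 64.5 ± 26.7 CPM in the Fcrl5 cluster, and the Ccr2 cluster was above those led by Mrc1, Fcrl5 and Gbp5 in 6 of 6 libraries. Csf3r was placed the other way. Its level was highest in the Fcrl5 cluster, at 234.8 ± 51.5 CPM, and this exceeded the Ccr2 cluster, at 179.0 ± 51.3 CPM, in 6 of 6 libraries. Csf2ra varied least, from 207.9 ± 96.8 CPM in the Gbp5 cluster to 263.1 ± 98.6 CPM in the Mrc1 cluster. Its spread between libraries was larger than that between clusters. Within libraries, however, the Mrc1 cluster and the Ccr2 cluster were each above the Gbp5 cluster in 6 of 6.

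**Figure D4:**
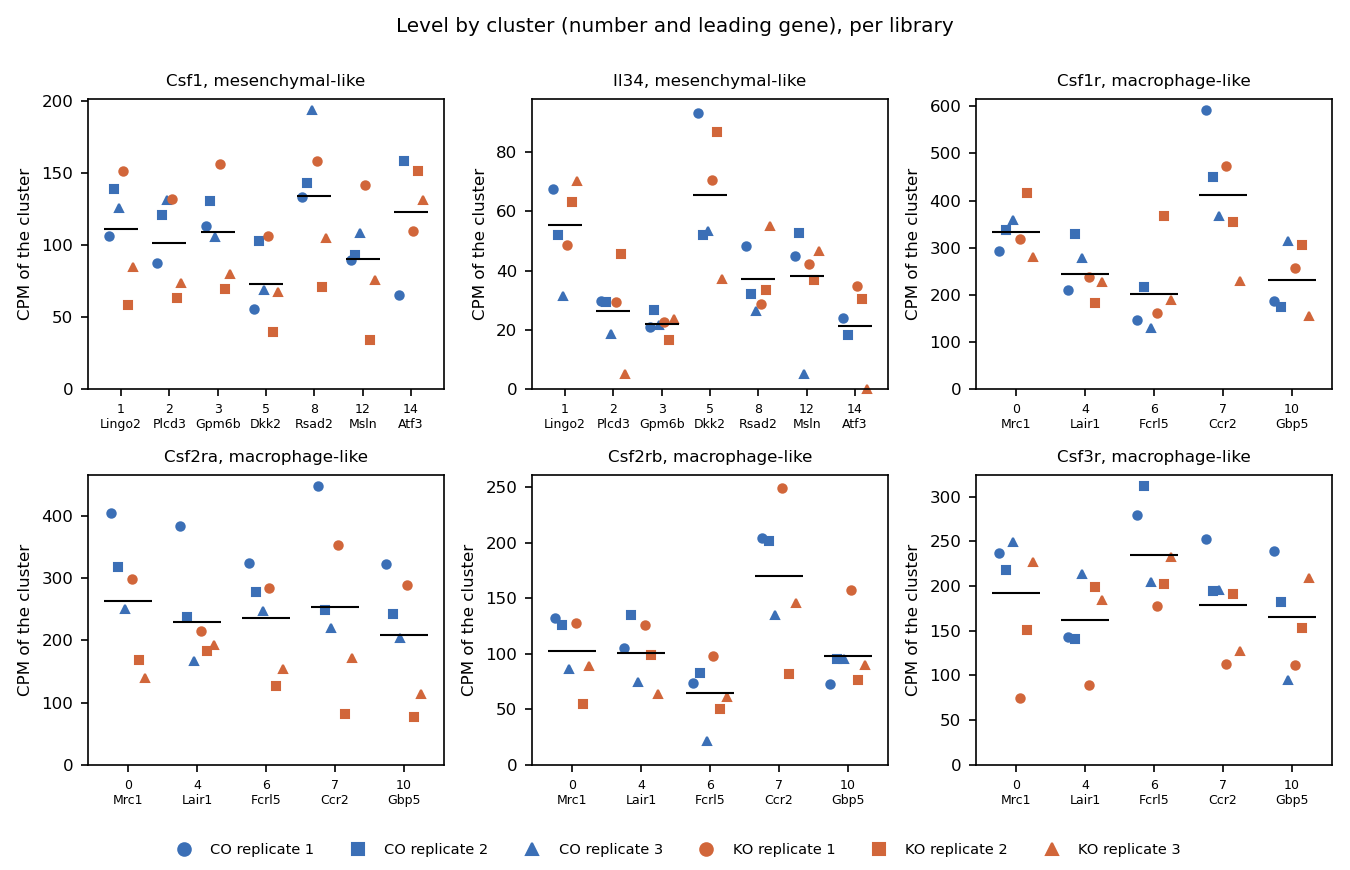
Level of each ligand in the mesenchymal-like clusters and of each receptor in the macrophage-like clusters, in CPM of the cluster, with 1 point per library with at least 20 nuclei and a line at the mean; clusters are labelled by number and leading gene. By the mean over libraries, Il34 peaked in the Dkk2 cluster where Csf1 was lowest, and Csf3r peaked in the Fcrl5 cluster where Csf1r and Csf2rb were lowest. Not all of these ranks held in each library.

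Small clusters outside the macrophage-like class held transcripts of the receptor genes, which were not set beside the macrophage markers there. The 48 dendritic-like nuclei held Csf2ra at 284.5 CPM (95% Poisson interval 171.3 to 444.2) and Csf2rb at 164.7 CPM (82.2 to 294.7), whereas Csf3r was at 29.9 CPM (3.62 to 108.2) from 2 UMIs. A cluster of 110 nuclei led by Flt3 and Itgae, which remained unnamed, held Csf2rb at 202.4 CPM (134.5 to 292.5), Csf2ra at 151.8 CPM (94.0 to 232.0) and Csf3r at 43.4 CPM (15.9 to 94.4). The 54 plasmacytoid dendritic-like nuclei held Csf2rb at 139.2 CPM (71.9 to 243.1) and Csf1r at 46.4 CPM (12.6 to 118.8), the latter from 4 UMIs. Endothelial-like nuclei held Csf2rb at 28.8 ± 17.8 CPM (n = 5), from 26 UMIs, whereas fibroblast-like nuclei had 1 Csf2rb UMI in all. Endothelial-like nuclei held little Csf1r, at 11.7 ± 5.70 CPM.

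In T/NK-like nuclei the receptors stood at 24.9 to 29.2% of their macrophage-like level over the pooled nuclei. The 14 macrophage markers stood at 17.2 to 32.4% in the same nuclei, so none of the 4 receptors was outside the range of genes that T/NK cells are not known to make. In mesenchymal-like nuclei the receptors stood at 0.804 to 1.53%, within the markers' range of 0.536 to 53.3% and below their median of 2.74%. With nuclei assigned one by one, the means over libraries rose from 0.900 to 2.18% for Csf3r and from 1.12 to 3.40% for Csf2rb. Over the pooled nuclei, the receptors in both classes thus lay within the range of the macrophage markers. In single libraries of T/NK-like nuclei, Csf1r ran from 11.6 to 47.0%, Csf2ra from 14.9 to 31.7%, Csf2rb from 16.4 to 66.8% and Csf3r from 0 to 47.0%. The summed macrophage markers ran from 20.3 to 33.1% there. Receptor transcripts in these 2 classes were not read as expression, and their source was not tested.

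Promoter sequence was taken from RefSeq (GRCm38.p6), which gave a window of 250 bases before the annotated start for 4 of the 8 genes. The windows of Csf1, the widely spread ligand, and Csf2ra, a receptor gene of macrophage-like and dendritic-like nuclei, are shown 5′ to 3′ because they contrast in GAGGAA, the core bound by the myeloid factor PU.1 (Spi1). The motif was searched on both strands, as GAGGAA or TTCCTC, and its matches are in capitals.
Csf1, chr3:107760470-107760719, minus strand: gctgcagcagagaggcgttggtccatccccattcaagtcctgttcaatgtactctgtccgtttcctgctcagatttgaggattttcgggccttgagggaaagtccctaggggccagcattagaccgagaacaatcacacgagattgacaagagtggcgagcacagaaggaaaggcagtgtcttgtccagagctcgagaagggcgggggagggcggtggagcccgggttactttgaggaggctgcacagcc
Csf2ra, chr19:61228419-61228668, minus strand: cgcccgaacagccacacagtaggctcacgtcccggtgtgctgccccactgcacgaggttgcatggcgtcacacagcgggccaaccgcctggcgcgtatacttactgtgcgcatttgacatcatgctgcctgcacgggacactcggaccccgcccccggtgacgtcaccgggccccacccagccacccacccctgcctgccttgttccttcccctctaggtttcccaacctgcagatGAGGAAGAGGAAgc
The Csf2ra window held 2 adjacent matches, the Csf3r window held 1, and the Csf1 and Csf2 windows held none. The RefSeq and GENCODE starts differ: 11 bases of the Csf2ra window and 109 bases of the Csf3r window lie inside the GENCODE gene. By GENCODE, the Csf3r match and the last Csf2ra match are inside the gene, and the other Csf2ra match spans its start. The motif was present in 23.3% of 32851 promoter windows of the same length, so a match is common, and it describes the letters and not a bound site.

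The KO and CO libraries were then compared on summed counts per class. No gene passed the test (absolute log2 fold change of at least 0.58 and edgeR quasi-likelihood adjusted p of at most 0.05, Benjamini-Hochberg) in macrophage-like (0 of 10002 genes, 0%), mesenchymal-like (0 of 12850, 0%), T/NK-like (0 of 4418, 0%) or all nuclei (0 of 13661, 0%). At an unadjusted p under 0.05 there were 575, 903, 215 and 657 genes, and DESeq2 called 5, 22, 1 and 11. Of the 8 genes, 5 were in the macrophage-like fit, 6 in the mesenchymal-like fit and 3 in the T/NK-like fit, and none was called. For sums over a class, fewer nuclei in a state that expresses the gene and less RNA per nucleus cannot be told apart.

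The 5 genes fitted in macrophage-like nuclei had a median log2 fold change of -0.12, against 0.00 over all genes. Csf1 had the only unadjusted p under 0.05, a rate of 5.75% among all genes. Its level was 24.0, 27.6 and 35.9 CPM in CO replicates 1 to 3, with 62.5, 30.8 and 42.7 CPM in KO replicates 1 to 3, and the groups overlapped. KO exceeded CO by 0.70 on the log2 scale (SE 0.30, edgeR adjusted p = 0.772). Csf2ra was at -0.59 (SE 0.31, edgeR adjusted p = 0.772) and Csf3r at -0.49 (SE 0.30, edgeR adjusted p = 0.772). Csf3r was the only 1 of the 5 whose groups did not overlap, with KO below CO, as for 6.02% of all genes. Csf2rb was at -0.12 (SE 0.30) and Csf1r at 0.03 (SE 0.22), and the sign of Csf1r changed with the library left out.

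KO replicate 1 decided part of this result. Without it, the Csf2ra value was -0.98 (edgeR adjusted p = 0.00679; range over its alternatives 0.00679 to 0.999), so 1 of the 5 genes was called, where 20% of 9982 genes were called. The macrophage markers in these nuclei, all 14 with a UMI, were likewise lowest in KO replicates 2 and 3, with 5262 to 6123 CPM in the CO libraries, 6984 CPM in KO replicate 1, and 3888 and 3919 CPM in KO replicates 2 and 3. The summed mesenchymal markers, all 13 with a UMI but mostly Mecom and Slit2, stood there at 552 to 1031 CPM in the CO libraries. They stood at 397, 2553 and 2178 CPM in KO replicates 1 to 3. The part of either in the Csf2ra value was not tested. Without that library Csf1 was at 0.47, Csf2rb at -0.49, Csf1r at 0.00 (-0.00472) and Csf3r at -0.18, none of them called.

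In mesenchymal-like nuclei Csf1 was at -0.21 (SE 0.29, edgeR adjusted p = 0.709) and Il34 at 0.31 (SE 0.26, edgeR adjusted p = 0.587). Among the receptors, which stood at low levels there, the value furthest from 0 was that of Csf3r, at 1.71 (SE 0.75, edgeR adjusted p = 0.569). It rested on 7, 9 and 5 UMIs in CO replicates 1 to 3, with 10, 22 and 39 UMIs in KO replicates 1 to 3. The summed macrophage markers in the same nuclei, all 14 with a UMI, stood at 6.19 to 6.77% of their macrophage-like level in CO and 7.80 to 12.6% in KO libraries. Mertk gave 16291 of the 26377 marker UMIs in mesenchymal-like nuclei, against 3747 of 41495 in macrophage-like nuclei. The mesenchymal-like sum thus mostly follows Mertk, and the part of these markers in the Csf3r value was not tested. Without KO replicate 1 the Csf3r value was 2.16 (edgeR adjusted p = 0.0441; range over its alternatives 0.0441 to 0.983), where 19% of 12971 genes were called. It was 0.72 without KO replicate 3 and 0.39 with nuclei assigned one by one. In T/NK-like nuclei the sums were small: Csf1r held 24, 14 and 14 UMIs in CO replicates 1 to 3, with 10, 3 and 19 in KO replicates 1 to 3, and was at -0.79 (SE 0.39, edgeR adjusted p = 0.940). Csf1r was lower in each KO than in each CO library there, as were 5.64% of 4418 genes, but the value was 0.08 (0.0795) with no doublet removal. The macrophage markers, all 14 with a UMI, were also lower in T/NK-like nuclei of the KO libraries, summing to 850 to 1419 CPM against 1502 to 1602 CPM in the CO libraries, and their part in the Csf1r value was not tested.

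Whether the difference between KO and CO itself differed between the 2 main classes was tested as an interaction, in which 0 of 12282 genes (0%) were called, 955 reached an unadjusted p under 0.05, and 7 were called by DESeq2. Csf1 had a difference of log2 fold changes, macrophage-like minus mesenchymal-like, of 0.96 (SE 0.23, edgeR adjusted p = 0.562). The Csf1 level in macrophage-like nuclei was 24.1, 21.5 and 30.2% of the mesenchymal-like level in CO replicates 1 to 3, as against 43.4, 51.0 and 50.7% in KO replicates 1 to 3. The groups did not overlap, and their means were 25.3 ± 4.48% and 48.4 ± 4.27% (SD, n = 3 each), or 50.8% for KO without replicate 1. How many of all genes separated the groups by this percentage was not counted, so the separation is not read as particular to Csf1. For Il34 the same percentages were 4.41 to 6.66% in CO and 7.78 to 9.66% in KO libraries, but these rested on 3, 4 and 1 UMIs in the macrophage-like nuclei of CO replicates 1 to 3 and on 6, 2 and 10 UMIs in those of KO replicates 1 to 3. The Il34 interaction was 0.66 (SE 0.49) and changed sign, to -0.08 (-0.0807), with nuclei assigned one by one. The summed mesenchymal markers, all 13 with a UMI in macrophage-like nuclei but mostly Mecom and Slit2, stood at 5.85 to 7.98% in CO libraries. They stood at 4.84, 13.8 and 14.7% in KO replicates 1 to 3, and their part in the Csf1 value was not tested. KO replicate 1 had the lowest marker percentage of the 6 libraries and a Csf1 percentage above all CO libraries. Csf3r had an interaction of -2.01 (SE 0.44, edgeR adjusted p = 0.528). Without KO replicate 1, Csf1 was at 1.11 (edgeR adjusted p = 0.0323; range over its alternatives 0.0323 to 0.979) and Csf3r at -2.23 (edgeR adjusted p = 0.00895; range 1.05e-05 to 0.979), where 2.38% of 12422 genes were called. The lowest of these came without a low-count filter, where 1.08% of 17872 genes were called. Over all alternatives the Csf3r value ran from -3.64, with a stricter filter on nuclei, to -0.89, with nuclei assigned one by one. The Csf1 value ran from 0.57 to 1.15.

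**Figure D5:**
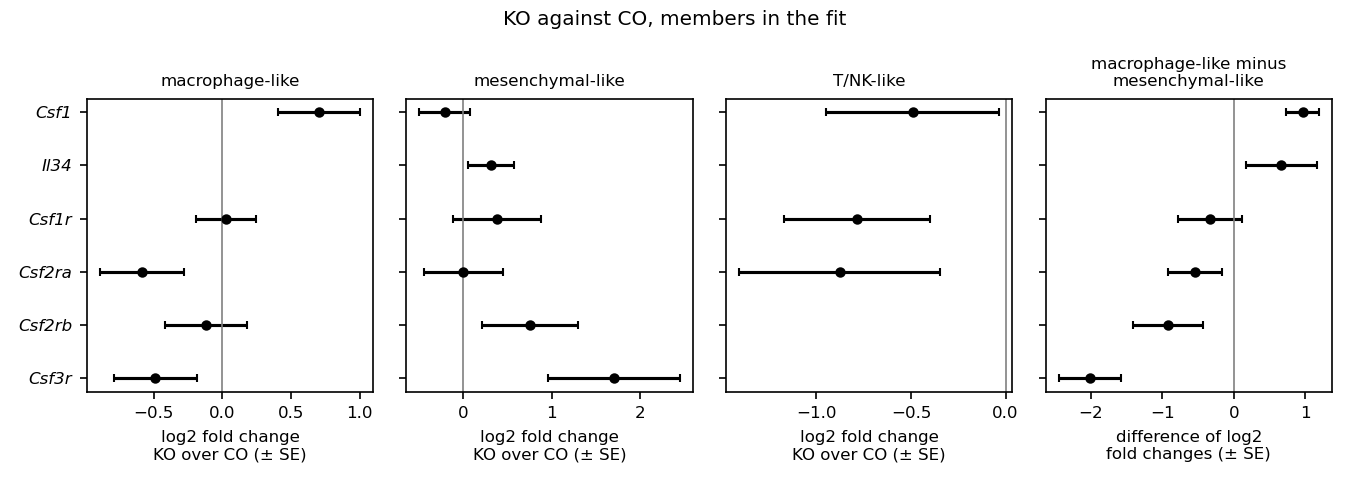
Log2 fold change of KO over CO with its standard error for the genes in each fit (macrophage-like, mesenchymal-like and T/NK-like nuclei) and, at the right, the difference of the macrophage-like and mesenchymal-like values; each panel has its own horizontal scale. None passed the adjusted threshold; in macrophage-like nuclei Csf1 sat at 0.70 and Csf2ra at -0.59, and Csf3r sat at -0.49 there and at 1.71 in mesenchymal-like nuclei.

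The share of macrophage-like nuclei with a Csf1 UMI, after thinning to 1000 UMIs, was 1.51, 2.27 and 2.42% in CO replicates 1 to 3, as against 5.25, 2.81 and 3.78% in KO replicates 1 to 3. The groups did not overlap, and the exact permutation test gave p = 0.1, the smallest that 3 against 3 libraries allow (two-sided). This setting left out 2677 of 6045 macrophage-like nuclei, and the groups overlapped at the other settings, which were added after seeing the data. With thinning to 500 UMIs the shares ran from 1.24 to 2.47% in the CO libraries, as against 1.57 to 2.97% in the KO libraries (exact permutation p = 0.3). Without thinning they ran from 2.80 to 4.28%, as against 3.92 to 6.00% (exact permutation p = 0.2). For Csf1r the share differed by 2.22 percentage points (exact permutation p = 0.5, two-sided, n = 3 each), and for Csf2ra by -7.81 points (exact permutation p = 0.2). The mesenchymal-like share of Csf1 UMIs was 81.4 ± 6.85% in CO and 82.3 ± 10.9% in KO libraries (exact permutation p = 1). Macrophage-like nuclei made up 34.0 ± 4.91% of nuclei in CO and 33.1 ± 13.0% in KO libraries. Across the 6 libraries the mesenchymal-like Csf1 level and the macrophage-like share gave Pearson's r = 0.39 (exact permutation p = 0.447, adjusted over 2 relations p = 0.758) and Spearman's rho = 0.26 (exact permutation p = 0.658), with r = -0.31 without KO replicates 1 and 2. For Il34 Pearson's r was -0.17 (exact permutation p = 0.758, adjusted p = 0.758) and rho -0.14 (exact permutation p = 0.803), with r = -0.28 without CO replicate 3 and KO replicate 1. Each group had too few libraries for a value of its own.

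Another 4 lists of related genes were read in the same fits, and none of their genes was called in any class. In macrophage-like nuclei 2 of 6 related ligands were in the fit. Epo, the gene of erythropoietin, had 55.6 ± 6.68 CPM over the CO libraries and 38.8 ± 11.7 CPM over the KO libraries (n = 3 each; log2 fold change -0.46, SE 0.25), and in mesenchymal-like nuclei at 92.8 ± 1.78 and 67.6 ± 23.8 CPM. Kitl, which encodes stem cell factor, was at 12.2 ± 2.00 and 23.9 ± 11.5 CPM in macrophage-like nuclei (0.97, SE 0.44) and at 88.0 ± 14.9 and 95.2 ± 10.5 CPM in mesenchymal-like nuclei. Its macrophage-like level was 11.8 to 17.3% of the mesenchymal-like level in the CO libraries and 14.1, 23.1 and 37.5% in KO replicates 1 to 3. The summed mesenchymal markers, mostly Mecom and Slit2, stood at 4.84, 13.8 and 14.7% in KO replicates 1 to 3, and their part in the Kitl value was not tested. Flt3l had too few counts for the macrophage-like fit and was at 4.13 ± 0.357 and 1.91 ± 1.07 CPM in mesenchymal-like nuclei (-1.05, SE 0.41, edgeR adjusted p = 0.569).

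Of 9 related receptors, 3 were in the macrophage-like fit, all with a value above 0: Csf2rb2 at 0.64 (SE 0.39), Sdc1, a proteoglycan known to bind IL-34, at 0.34 (SE 0.29), and Il3ra, the IL-3 receptor chain, at 0.09 (SE 0.46). Of 24 signal transducers, 23 were in that fit, with 13 values above 0 and 10 below and a median of 0.03, where 50.2% of all genes were above 0 and 49.8% below. The most frequent were Lyn, a Src family kinase, Gab2, an adaptor of growth factor receptors, and Inpp5d, the phosphatase SHIP1, at 2742 ± 346.5, 1698 ± 226.9 and 1578 ± 108.5 CPM over the CO libraries. Their KO values were 3119 ± 857.8, 1966 ± 545.8 and 1230 ± 46.6 CPM. The values furthest from 0 were those of Cblb, a ubiquitin ligase, at 0.82 (SE 0.44), and Plcg2, a phospholipase, at -0.41 (SE 0.19). Of 11 myeloid transcription factors, 9 were in the fit, with 3 values above 0, 6 below and a median of -0.13. Spi1, which encodes PU.1, had 573.3 ± 64.4 CPM over the CO libraries and 453.7 ± 41.9 CPM over the KO libraries (-0.32, SE 0.20), against 4.85 ± 1.14 and 7.15 ± 5.88 CPM in mesenchymal-like nuclei. Runx1 was at -0.30 (SE 0.27), Mitf at 0.45 (SE 0.24) and Klf4 at 0.60 (SE 0.38) in macrophage-like nuclei.

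The genes whose level ran closest to 5 of the members over the 18 sums of 3 classes by 6 libraries were named by Pearson's r of log2(CPM + 1) among 10000 genes. The 18 sums share libraries, and the 3 classes account for most of the range, so r is a description only. Csf1r ran closest to Plbd1, Ly86 and Slc7a7 (r = 0.993, 0.992 and 0.991), Csf2ra to H2-T24, Cacna1d and Nxpe5 (0.986 to 0.984), and Csf3r to Naip6, Cybb and 9930111J21Rik2 (0.988 to 0.985). Il34 ran closest to Ak4, Arsj and Ccp110 (0.974 to 0.929). Csf1 had weaker partners, with Btg3, Igf2r and E2f6 at 0.875 to 0.863.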

How the data were processed

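Single-nucleus libraries (10x Chromium 3′ v3.1) of 6 tumors were used, 3 CO and 3 KO. The authors deposited raw UMI counts per gene and barcode (GRCm38; Cell Ranger 3.0.2 per the labels, 3.1.0 in the matrix headers), all barcodes holding at least 500 UMIs; whether intronic reads were counted is not given in the sources used here. Some samples received extra washes against free RNA, and the labels do not say which. Nuclei with 100 to 7500 genes and under 20% mitochondrial counts were kept. Scrublet's own threshold marked under 0.5% of barcodes in 5 of 6 libraries, so the highest-scoring 0.8% per 1000 barcodes were removed (521). Libraries were integrated with Harmony on 30 principal components of 2000 variable genes, without the 8 genes and the related lists, and clustered (scanpy 1.11.5, leiden, resolution 1). A cluster was named from at least 3 detected markers. Class sums were tested with edgeR 4.0.16 (TMM, filterByExpr, quasi-likelihood; R 4.3.3), and DESeq2 1.42.0 was an alternative. The edgeR step was tested on simulated data. The study describes the libraries of a group as biological replicates, and the labels do not name the mouse of each. Gene positions are those of GENCODE vM21. The 8 genes, lists and tests were chosen with earlier results of these data known. Of each list, the 3 genes with the highest mean and the 2 with the largest absolute fold change in macrophage-like nuclei were named. Total UMIs were 13252572 to 22057084 per library. Replicates differed beyond sampling noise (chi-square per degree of freedom of at least 8.31), so none was merged. The genes closest in pattern to Csf2rb are not reported here.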

Additional observations from a re-analysis of the deposited data

How the results depend on the processing

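Of 248 values of single genes under the alternatives, 227 kept their direction and their side of the threshold, 16 changed sign and 5 became calls. DESeq2 called 11 genes in all nuclei, 5 in the macrophage-like, 22 in the mesenchymal-like and 1 in the T/NK-like class and 7 for the interaction, against 0 by edgeR. Without a low-count filter 45 T/NK-like and 193 interaction calls were made, Csf3r among the latter at -2.24. Leaving out 1 library gave 0 to 2000 macrophage-like, 0 to 2460 mesenchymal-like, 0 to 5 T/NK-like and 0 to 296 interaction calls, the highest each without KO replicate 1; without KO replicate 3 there were 3 interaction calls. The cause was not tested. Leaving out 1 library moved the macrophage-like values of Csf1r from -0.12 to 0.17 and of Csf2rb from -0.49 to 0.07 (0.0729). The mesenchymal-like values ranged from -0.59 to 0.00 (0.00246) for Csf1, from -0.01 (-0.0131) to 0.82 for Csf1r and from -0.27 to 0.37 for Csf2ra, and the Csf1r interaction from -0.91 to 0.11. Mesenchymal-like Csf2ra, near 0, was at 0.01 (0.0108) with RLE scaling, 0.01 (0.00821) with DESeq2 and 0.10 with no doublet removal, which put T/NK-like Csf1r at 0.08 (0.0795). The Il34 interaction was -0.08 (-0.0807) with nuclei assigned one by one, and that of Csf2rb was 0.13 with a stricter filter of 500 genes or more and mitochondrial counts under 5%. RLE scaling moved the interaction's median over all genes from 0.09 to -0.01. With that filter the mesenchymal-like share of Csf1 UMIs was 70.5%, and the macrophage-like shares were 88.3% for Csf1r, 88.9% for Csf2ra and 89.1% for Csf3r. With nuclei assigned one by one they were 95.9% for Il34 (mesenchymal-like) and 66.6% for Csf1r, 67.8% for Csf2ra and 70.6% for Csf3r. With no doublet removal Csf2ra was at 75.3%. The KO minus CO difference in Csf1r-positive macrophage-like nuclei was -1.34 points without thinning and -0.21 to 5.28 points with 1 library left out, and that in the mesenchymal-like share of Csf1 UMIs -4.83 to 6.01 points. Whether the replicate numbers pair the libraries was not settled. Correlations of same-numbered deviations were 0.16 to 0.50 for replicates 1 and 3 and -0.16 to -0.27 for replicate 2. The median mitochondrial percentage per nucleus was 6.76 and 6.21 in CO and KO replicate 1. It was 3.93 and 3.81 in replicate 2, and 1.33 and 0.89 in replicate 3, so it ran with the replicate number. With the replicate number as a block 0 genes were called in each of the 4 sums, and Csf1 in macrophage-like nuclei was at 0.64. The block gave 1685 mesenchymal-like and 1060 all-nuclei genes at an unadjusted p under 0.05, against 903 and 657 without it. For macrophage-like and T/NK-like nuclei it gave 666 and 213, against 575 and 215. The comparison of levels in the other class under these alternatives was added after seeing the data.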
